A study of Mus musculus with 48 samples.

Results

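RNA was sequenced from mouse pre-pro-B cells in which Ikzf1, the gene of the zinc finger transcription factor Ikaros, had been knocked down with either of 2 short hairpins. The experiment took in the 16 libraries whose titles name the knock-down, of 48 samples in the series, and compared both Ikzf1 hairpins with both controls. All 16 libraries, controls included, came from Ebf1(-/-) cells of strain C57BL/6, so every group lacked the B-lineage factor Ebf1. Control cells carried an empty vector (4 libraries) or the control construct Ren713 (4 libraries). Knock-down cells carried the hairpin Ik4056 (4 libraries) or Ik2709 (4 libraries), which name the libraries throughout. The labels do not say how the constructs were delivered, how long the cells were grown, or whether replicates are separate animals or separate cultures. The p-values therefore speak only of the spread among these libraries, which may be technical.

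Ikaros binds DNA through its zinc fingers and recruits chromatin complexes, among them the NuRD remodeller, to its targets. It is known to be needed for lymphoid and above all B-cell development, and its loss is linked to B-cell leukaemia. Pre-pro-B cells are lymphoid progenitors that stand before commitment to the B lineage. Without Ebf1, progenitors are held at that stage and keep some ability to form myeloid, NK and T cells, which makes them a model of the uncommitted cell rather than of normal B-cell development.

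Expression is given as RPKM, the authors' deposited read density (reads scaled to gene length and to library depth). The libraries fell into 4 runs of consecutive library numbers, each with 1 library of every construct, and libraries of a run deviated from their groups together. The run was therefore a block in the model, which was fitted with limma on log2(RPKM + 1) for the 10744 genes with at least 1 RPKM in at least 2 of the 16 libraries. Differences are on that log2 scale with their standard error (SE), which understates the change of genes at low RPKM, and calls required an adjusted p (Benjamini-Hochberg, all genes tested) under 0.05. The step between low RPKM values implied 17.0 to 20.5 M reads per library in runs 1 and 2 and 26.8 to 36.1 M in runs 3 and 4. Every run holds all 4 constructs, so this depth gap does not separate hairpin from control libraries.

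The targeted transcript was lower in every hairpin library. Ikzf1 stood at 145, 110.0, 112 and 139 RPKM in empty vector runs 1 to 4 and at 141, 106, 111 and 136 RPKM in Ren713. It stood at 53.2, 23.7, 31.2 and 51.5 RPKM with Ik4056 and at 51.8, 30.8, 40.8 and 60.6 RPKM with Ik2709. The highest hairpin library lay well below the lowest control library, and the order of the runs was much the same in all 4 constructs. Mean Ikzf1 in the hairpin libraries was 34.4% of the control mean (42.9 ± 13.3 against 125 ± 16.6 RPKM, SD, n = 8 each). Ikzf1 fell by 1.57 ± 0.08 (log2, SE; limma adjusted p = 1.47e-10), and within runs 1 to 4 the log2 difference was -1.43, -1.96, -1.61 and -1.28. Against the controls of its run, Ik4056 left 21.9% to 37.5% of the transcript and Ik2709 28.5% to 44.1%. The difference between the hairpins was not called (adjusted p = 0.146). Of its relatives, Ikzf4 and Ikzf5 were tested and not called, while Ikzf2 and Ikzf3 stayed below 1 RPKM in all 16 libraries and were not tested.

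The cells carried transcripts of uncommitted lymphoid progenitors, beside some of the T lineage. Flt3, the cytokine receptor of early lymphoid progenitors, lay between 112 and 199 RPKM in the 16 libraries, and Tcf3, the E protein E2A, between 118 and 173 RPKM. Pax5 and Cd79a, which mark commitment to the B lineage, were nearly silent: Pax5 reached at most 0.296 RPKM and Cd79a at most 0.196 RPKM in any library. Their partner Cd79b averaged 3.77 RPKM with empty vector and 4.34 with Ren713, and the surrogate light chain gene Igll1 0.564 and 0.650. Cd3e, a subunit of the T-cell receptor complex, stayed at or below 0.194 RPKM, and Cd3g, Cd8a and Bcl11b below 1 RPKM. Other T-lineage genes were expressed: with empty vector and Ren713 Thy1 averaged 653 and 587 RPKM and Lck 134 and 129. Tcf7 averaged 7.1 and 6.3 RPKM and Gata3 6.7 and 6.3. Reads over the Ebf1 gene model gave 14.8 to 32.1 RPKM in these Ebf1(-/-) cells, a value that cannot tell a disrupted transcript from an intact one. S100a8 and S100a9, which mark mature neutrophils, C1qa of mature macrophages and Ms4a2 of mast cells were at 0 in all 16 libraries.

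**Figure D1:**
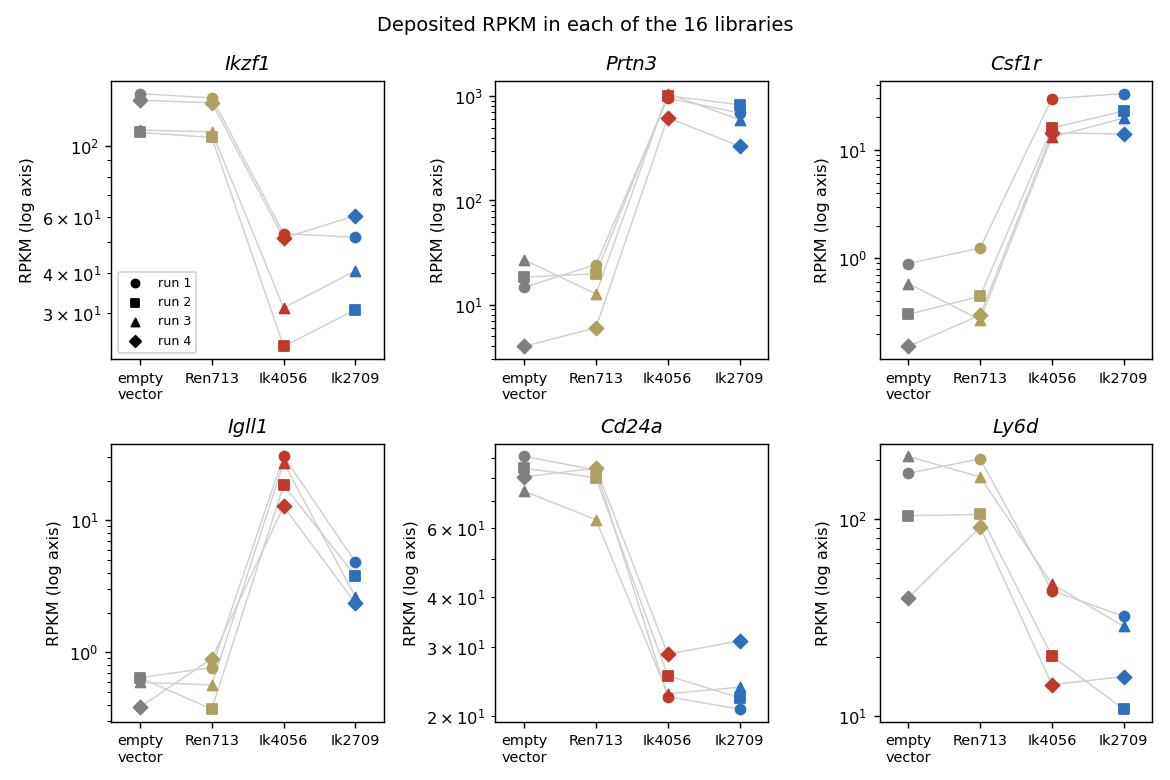
Deposited RPKM (log axes, which differ between panels) of 6 genes in the 4 constructs, with a symbol per run and grey lines joining the libraries of a run. Ikzf1 and Cd24a were lower and Prtn3, Csf1r and Igll1 higher in all 8 hairpin libraries than in all 8 controls, Igll1 more with Ik4056 than with Ik2709, while the arms of Ly6d overlap.

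Over all genes, 5575 of 10744 were called (51.9%), 3095 higher (28.8%) and 2480 lower (23.1%) in the hairpin libraries. The counts given below for gene lists are to be read against these shares. Most of these differences were small, with a median size of 0.27 on the log2 scale. A difference of at least 1 was called for 284 higher and 52 lower genes, and one of at least 2 for 58 higher and 2 lower genes. The large changes were therefore mostly increases. Hairpin and control libraries did not overlap at all for 592 of the genes called higher (5.51% of genes tested) and for 166 of those called lower (1.55%). The balance of small changes depends on how libraries are scaled: quantile normalization called 2447 higher and 3564 lower, and median-ratio scaling 2611 and 3331, with the median over all genes moving from 0.01 to -0.05 and -0.03. Of the genes called, 91.5% had the same sign in all 4 runs, against 55.8% of all genes tested. Without the run in the model, 2086 genes were called (1437 higher, 649 lower), and all 2086 were also called with it.

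Among the genes named by rule, those that rose most were myeloid genes. Prtn3, the granule protease proteinase 3, stood at 14.7, 18.4, 26.9 and 3.96 RPKM in empty vector runs 1 to 4 and at 24.2, 19.8, 12.7 and 6.00 RPKM in Ren713. With Ik4056 it stood at 958, 1015, 1061 and 625 RPKM and with Ik2709 at 694, 829, 597 and 331 RPKM. Run 4 was the lowest run in all 4 constructs, and even there the hairpin libraries were far above every control. Prtn3 rose by 5.63 ± 0.20 (adjusted p = 3.81e-09), the largest change among the genes named by rule.

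Ctsg, the granule protease cathepsin G, ranged from 4.69 to 13.4 RPKM in the 8 control libraries (median 6.74) and from 48.6 to 142 RPKM in the 8 hairpin libraries (median 81.7), a rise of 3.26 ± 0.09 (adjusted p = 3.40e-13). Mpo, the myeloperoxidase of primary granules, was already present in controls at 21.1 to 90.0 RPKM (median 56.9) and reached 110 to 424 RPKM (median 248) with the hairpins, a rise of 2.14 ± 0.10 (adjusted p = 2.31e-09). For both genes the arms did not overlap, which the naming rule required of Ctsg, and for Mpo run 4 was again the lowest run in every construct. Elane, neutrophil elastase, was at most 0.121 RPKM in any control and 0.957 to 4.27 RPKM with the hairpins, which is a rise of 1.81 ± 0.10 on the log2(RPKM + 1) scale. It would not have been tested on the control libraries alone.

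Of the 20 neutrophil and granule genes listed, 9 reached the level for testing, and all 9 were called higher, with a median log2 difference of 1.82 against 0.01 over all genes. Among these, 7 would have been tested on the control libraries alone. They were the granule genes Prtn3, Ctsg, Mpo, Elane and Ltf, the C/EBP factor genes Cebpa, Cebpb and Cebpd, and the integrin gene Itgam. The other 11 stayed too low to test, among them Camp, Ngp and S100a8 of later neutrophil stages, while Ltf, the secondary granule gene lactoferrin, was called higher with overlapping arms. The summed RPKM of the 9 genes was 76.1 to 198 in control libraries and 618 to 1479 in hairpin libraries. In bulk RNA, more cells that express a gene and more transcript in each cell cannot be told apart.

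Genes of the monocyte and macrophage list moved in the same direction with 2 exceptions. Csf1r, the receptor for macrophage colony-stimulating factor, stood at 0.892, 0.302, 0.581 and 0.153 RPKM in empty vector and at 1.24, 0.443, 0.269 and 0.296 RPKM in Ren713. It stood at 29.9, 16.0, 13.2 and 14.4 RPKM with Ik4056 and at 33.2, 22.9, 19.7 and 14.1 RPKM with Ik2709. The receptor was thus barely detected in controls, present in all 8 hairpin libraries, and highest in run 1 in all 4 constructs. Csf1r rose by 3.77 ± 0.08 (adjusted p = 8.49e-16). On the control libraries alone it would not have been tested, so it passed that level through the arm in which it is high.

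Mrc1, the mannose receptor of macrophages, went from 1.498 to 3.09 RPKM in controls (median 1.99) to 26.5 to 47.3 RPKM with the hairpins (median 36.7), a rise of 3.55 ± 0.09. Ly6c2, which encodes the monocyte antigen Ly-6C, rose by 4.31 ± 0.07, from 0.603 to 2.49 RPKM in controls (median 1.46) to 27.8 to 78.1 RPKM (median 47.4). Its neighbour Ly6c1 is a near-identical copy, so reads of the pair may have been shared. Cd68, a lysosomal glycoprotein of phagocytes, rose by 2.56 ± 0.07 and Lyz2, lysozyme, by 2.53 ± 0.10. F13a1, the coagulation factor subunit made by monocytes, rose by 3.12 ± 0.11, from 0.386 to 1.51 RPKM to 8.37 to 28.0 RPKM.

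Ly6c2 and F13a1 lie outside the list and are among the 15 leading increases. Of the 20 genes on the list 15 were tested, 13 called higher and 2 lower, with a median of 1.38, and 10 would have been tested on controls alone (8 of them higher). The 2 that fell were Adgre1, the macrophage antigen F4/80 (by 0.96 ± 0.09), and Fcgr3, an activating Fc receptor (by 0.77 ± 0.09). The summed RPKM of the 15 was 73.9 to 118 in controls and 226 to 361 in hairpin libraries. Mature macrophage complement genes C1qa, C1qb and C1qc were among the 5 not tested. Among regulators of myeloid fate, Cebpa and Irf8 belong to these lists and Spi1 does not; the 3 were named after their values were seen. Cebpa, the C/EBP factor of granulocyte progenitors, rose by 1.09 ± 0.06 (25.04 ± 8.17 to 53.1 ± 12.1 RPKM, SD, n = 8). Irf8, a factor of monocyte and dendritic cell development, rose by 1.68 ± 0.09 (31.6 ± 9.12 to 102 ± 27.8 RPKM), and Spi1, which encodes PU.1, by 0.46 ± 0.04 (137 ± 13.5 to 190 ± 20.7 RPKM). Cebpd, another C/EBP factor, rose by 2.34 ± 0.10.

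The promoters of 7 leading genes are shown as examples picked after their values were seen, 4 of genes that rose (Prtn3, Mrc1, Ctsg and Igll1) and 3 of genes that fell (Jchain, Myl4 and Tnni1); other leading genes are not shown. Each line gives the 250 bases before the annotated start site, 5′ to 3′ on the gene's strand, from RefSeq windows on GRCm38.p6, a later build than the mm9 of the deposited values. Capitals mark GAGGAA or its reverse complement TTCCTC, a core of the sites bound by PU.1, and TGGGAA or its reverse complement TTCCCA, the core of Ikaros sites. Prtn3 lies at chr10:79879417-79879666 (plus strand), Mrc1 at chr2:14229164-14229413 (plus), Ctsg at chr14:56102575-56102824 (minus), Igll1 at chr16:16863986-16864235 (minus), Jchain at chr5:88527898-88528147 (minus), Myl4 at chr11:104550413-104550662 (plus) and Tnni1, at the first of its 2 annotated starts, at chr1:135799171-135799420 (plus).
Prtn3: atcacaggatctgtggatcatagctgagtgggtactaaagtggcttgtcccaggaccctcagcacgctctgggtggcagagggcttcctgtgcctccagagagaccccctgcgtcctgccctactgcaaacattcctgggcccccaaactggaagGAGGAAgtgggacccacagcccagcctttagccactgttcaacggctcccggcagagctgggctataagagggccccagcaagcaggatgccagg
Mrc1: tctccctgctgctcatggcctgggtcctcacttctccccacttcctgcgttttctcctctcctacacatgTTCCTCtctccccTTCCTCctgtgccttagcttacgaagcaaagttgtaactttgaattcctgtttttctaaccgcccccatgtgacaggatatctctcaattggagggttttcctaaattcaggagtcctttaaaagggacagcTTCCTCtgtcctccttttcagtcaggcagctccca
Ctsg: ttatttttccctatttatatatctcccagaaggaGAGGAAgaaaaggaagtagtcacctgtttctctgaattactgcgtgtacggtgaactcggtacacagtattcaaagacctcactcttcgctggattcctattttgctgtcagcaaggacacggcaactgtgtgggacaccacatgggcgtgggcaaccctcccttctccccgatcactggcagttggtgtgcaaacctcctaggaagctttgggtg
Igll1: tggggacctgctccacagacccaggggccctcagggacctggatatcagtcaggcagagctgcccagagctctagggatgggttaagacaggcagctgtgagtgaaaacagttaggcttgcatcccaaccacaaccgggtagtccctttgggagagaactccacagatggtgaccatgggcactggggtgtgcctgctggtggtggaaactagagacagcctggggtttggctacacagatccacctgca
Jchain: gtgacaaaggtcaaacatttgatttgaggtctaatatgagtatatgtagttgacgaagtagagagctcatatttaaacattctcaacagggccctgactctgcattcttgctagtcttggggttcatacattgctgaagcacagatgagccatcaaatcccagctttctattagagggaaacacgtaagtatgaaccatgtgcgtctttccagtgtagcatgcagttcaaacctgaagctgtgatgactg
Myl4: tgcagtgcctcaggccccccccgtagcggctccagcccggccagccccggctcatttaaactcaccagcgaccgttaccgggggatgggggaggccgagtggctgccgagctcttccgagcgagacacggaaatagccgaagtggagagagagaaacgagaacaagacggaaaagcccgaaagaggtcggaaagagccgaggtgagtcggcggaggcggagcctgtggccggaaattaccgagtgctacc
Tnni1: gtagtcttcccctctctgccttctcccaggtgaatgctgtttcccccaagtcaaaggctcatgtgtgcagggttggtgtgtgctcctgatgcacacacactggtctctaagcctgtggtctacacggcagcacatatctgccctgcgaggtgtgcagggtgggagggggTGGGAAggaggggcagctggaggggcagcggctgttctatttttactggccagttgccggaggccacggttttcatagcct

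The windows of Prtn3 and Ctsg hold GAGGAA at -95 and -216 from the start site, and that of Mrc1 holds TTCCTC at -180, -167 and -35. The window of Tnni1 holds TGGGAA at -81 (at -171 from its other start). Those of Igll1, Jchain and Myl4 hold neither motif. Over all RefSeq windows of genes with a single start (250 bases before to 50 after it, either strand), 28.4% of 22862 held GAGGAA, as did 26.1% of the 6826 among genes tested. The share was 38.5% (134 of 348) for genes called higher without overlap between arms and 20.9% (19 of 91) for those called lower without overlap. For TGGGAA these shares were 25.5%, 22.0%, 25.6% (89 of 348) and 19.8% (18 of 91). GAGGAA was searched after the windows had been seen. A match describes letters in a window and is not evidence of a bound site.

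**Figure D2:**
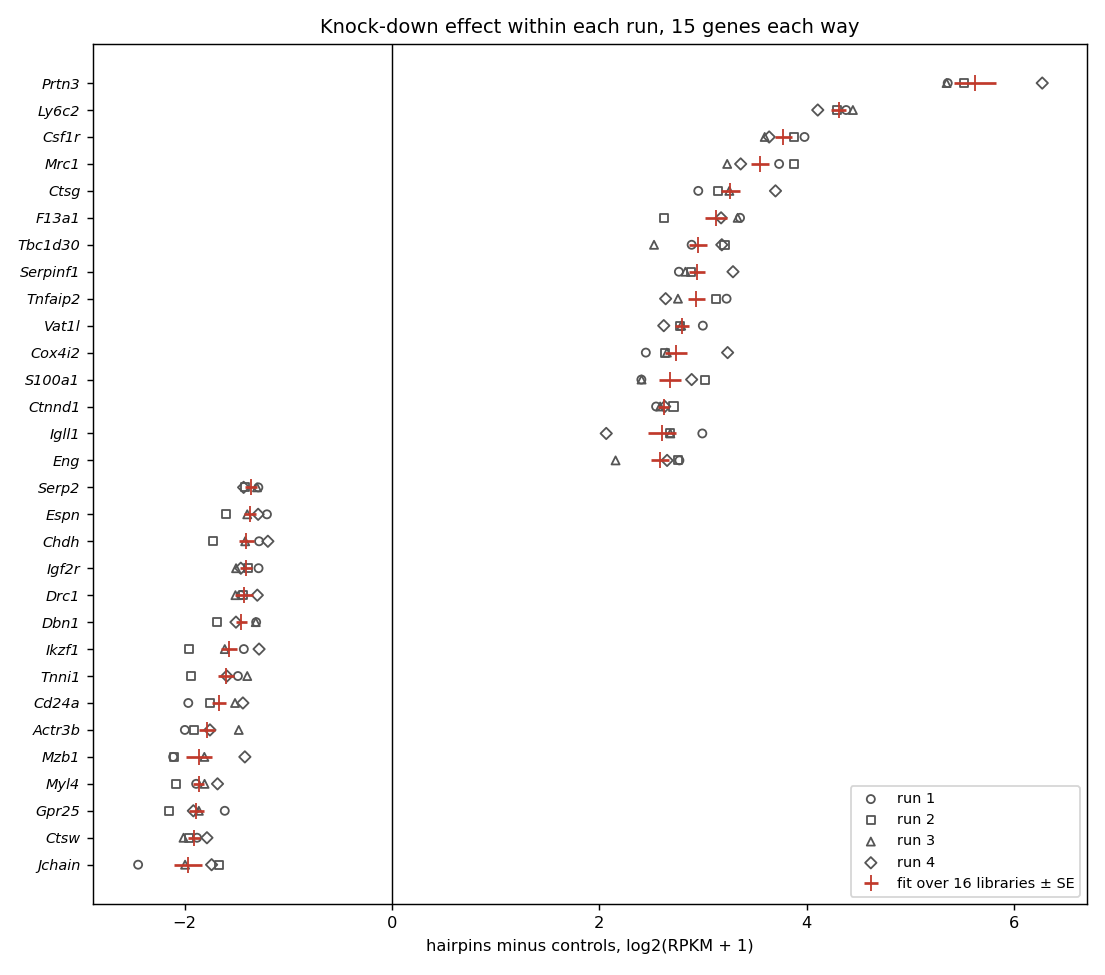
Log2 difference between hairpin and control libraries within each run (open symbols) and over all 16 libraries (red, ± SE) for the 15 genes with the largest increase and the 15 with the largest decrease by the naming rule. All 4 runs lie on the same side of 0 for each gene, which the rule required, and Prtn3 is the highest in every run.

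Another 8 of the 15 leading increases lie outside the myeloid lists. Tbc1d30, a gene of the TBC domain family, rose by 2.95 ± 0.09, from 0.0568 to 0.261 RPKM in controls to 3.38 to 16.2 RPKM. Vat1l, a gene of the VAT1 family, rose by 2.80 ± 0.07 and Cox4i2, a subunit gene of cytochrome c oxidase, by 2.74 ± 0.11. Ctnnd1, which encodes the cadherin partner p120-catenin, rose by 2.62 ± 0.05, from 1.01 to 1.69 RPKM in controls to 9.17 to 21.6 RPKM. Eng, the TGF-beta co-receptor endoglin, rose by 2.58 ± 0.08. Tnfaip2, a TNF-induced gene, rose by 2.94 ± 0.08, the secreted serpin gene Serpinf1 by 2.94 ± 0.08, and S100a1, a calcium-binding protein gene, by 2.68 ± 0.11. For each of these 8 genes the lowest hairpin library exceeded the highest control library, which the naming rule required. Tbc1d30 would not have been tested on the control libraries alone.

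Integrin and focal adhesion genes were called higher in 21 and lower in 2 of 31 tested of 38 listed (median 0.32), in 13 and 2 without the run in the model, and in 20 and 2 of the 29 that pass on controls alone. Actn1, the actin crosslinker alpha-actinin, led the list at 1.44 ± 0.05 (22.4 RPKM median in controls, 60.5 RPKM with the hairpins, no overlap). Vcl, vinculin, rose by 0.84 ± 0.05 with overlapping arms, and Itgb5 by 0.94 ± 0.07. Itgb7, the integrin subunit of gut homing, fell by 0.84 ± 0.07. Receptors that guide migration changed in both directions, 9 higher and 5 lower of 17 tested of 24, or 5 and 5 of the 12 that would have been tested on controls alone. Cxcr3 rose by 2.37 ± 0.09, the neuropilin gene Nrp1 by 2.18 ± 0.08 and S1pr2, a sphingosine phosphate receptor, by 2.08 ± 0.06. Ccr9, a homing receptor of thymus-seeding progenitors, fell by 1.65 ± 0.09, Cxcr5 by 1.20 ± 0.10 and Ccr7 by 0.91 ± 0.06.

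Lymphoid genes divided rather than falling as a group. Of 29 tested early lymphoid genes (30 listed), 13 were called higher and 13 lower, with a median of 0.03 (0.16 with Ik4056 and -0.16 with Ik2709), and 9 and 8 were called without the run in the model. On controls alone 27 would have been tested, 11 higher and 13 lower. Rag2, a recombinase subunit, stood at 6.96, 5.43, 5.96 and 5.88 RPKM in empty vector and at 7.71, 5.80, 4.96 and 5.90 RPKM in Ren713. It stood at 2.78, 2.14, 1.73 and 1.24 RPKM with Ik4056 and at 4.64, 2.06, 2.27 and 1.93 RPKM with Ik2709. Every hairpin library was below every control, although run 1 of Ik2709 came near. Rag2 fell by 1.12 ± 0.08 (adjusted p = 3.44e-09) and Rag1 by 0.72 ± 0.08, while Dntt, terminal transferase, was not called (0.22 ± 0.19, adjusted p = 0.360).

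Ly6d, a surface antigen that marks B-biased lymphoid progenitors, stood at 170, 104, 208 and 39.9 RPKM in empty vector and at 202, 105.4, 163 and 90.9 RPKM in Ren713. It stood at 43.3, 20.2, 46.9 and 14.4 RPKM with Ik4056 and at 32.0, 10.9, 28.5 and 15.9 RPKM with Ik2709. Within each run the hairpin libraries were below both controls, but the arms overlapped because the run 4 empty vector library was low. Ly6d fell by 2.31 ± 0.18 (adjusted p = 1.38e-06). Il7r, the receptor subunit for interleukin 7, fell by 0.52 ± 0.07, and Flt3 by 0.14 ± 0.04; Flt3 was not called without the run in the model.

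Cd24a, a surface glycoprotein of early B cells, was lower in every hairpin library, which the naming rule required. It ranged from 62.9 to 90.9 RPKM in the 8 controls (median 82.3) and from 20.9 to 31.1 RPKM in the hairpin libraries (median 23.3). It fell by 1.67 ± 0.07 (adjusted p = 2.26e-12), with -1.65 for Ik4056 and -1.68 for Ik2709. Cd72, a B-cell co-receptor, fell by 1.10 ± 0.08. Cd79b, the signalling partner of Cd79a in the B-cell receptor, rose by 1.53 ± 0.08, from 3.21 to 5.13 RPKM to 7.72 to 20.6 RPKM. Of the 24 B-lineage genes listed downstream of Ebf1 and Pax5, 16 were too low to test, 3 were called higher and 5 lower, with a median of -0.23 (0.25 with Ik4056 and -0.51 with Ik2709). Without the run in the model 2 and 2 were called, and on controls alone 7 would have been tested, 2 higher and 5 lower.

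The other leading decreases were not of a single pathway. Jchain, which joins antibody chains in secreting cells, ranged from 29.3 to 62.1 RPKM in controls (median 41.0) and from 5.78 to 16.6 RPKM with the hairpins (median 9.85), a fall by 1.97 ± 0.14. Mzb1, an endoplasmic reticulum co-chaperone of B cells, fell by 1.86 ± 0.12. Ctsw, a cathepsin of cytotoxic lymphocytes, fell by 1.91 ± 0.06, from 26.6 to 38.9 RPKM to 4.56 to 11.4 RPKM. Transcripts best known from muscle fell as well: Myl4, a myosin light chain, by 1.87 ± 0.06, and Tnni1, a troponin, by 1.60 ± 0.08 from a control median of 412 RPKM to 138 RPKM. None of these 5 genes had overlapping arms, which the naming rule required.

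T-lineage genes also split. Of 14 tested of 22 listed, 5 were called higher and 7 lower, with a median of -0.21 (0.22 with Ik4056 and -0.76 with Ik2709). On the control libraries alone 12 would have been tested, 3 higher and 7 lower. The 7 that fell were Thy1, Lck, Cd2, Lat, Zap70, Cd247 and Gata3, and those that rose included Cd28 and Cd4. Thy1 fell by 1.13 ± 0.05 (control median 642 RPKM, hairpin median 293 RPKM, no overlap) and the kinase gene Lck by 0.98 ± 0.04 with overlapping arms. The adhesion receptor gene Cd2 fell by 1.30 ± 0.08, the adaptor gene Lat by 0.85 ± 0.09 and the kinase gene Zap70 by 0.75 ± 0.06. The co-stimulatory receptor gene Cd28 rose by 1.75 ± 0.08. Cd4 rose by 0.91 ± 0.09 from a low level, with means of 0.289 and 0.282 RPKM with empty vector and Ren713. Cd4 averaged 2.32 RPKM with Ik4056 but 0.774 RPKM with Ik2709. The subunits Cd3e and Cd3g, Cd8a and Bcl11b never reached 1 RPKM.

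Igll1, which encodes the lambda5 surrogate light chain of the pre-B-cell receptor, rose in both hairpins but unequally. It stood at 0.642, 0.642, 0.591 and 0.383 RPKM in empty vector and at 0.766, 0.371, 0.567 and 0.896 RPKM in Ren713. It stood at 30.5, 18.4, 27.4 and 12.7 RPKM with Ik4056 but at 4.84, 3.79, 2.63 and 2.36 RPKM with Ik2709. The constructs formed 3 separate levels with no overlap between controls, Ik2709 and Ik4056. The naming rule required controls to lie apart from hairpins, and Igll1 passed the level for testing only through the hairpin libraries. The log2 change was 3.79 with Ik4056 and 1.43 with Ik2709, and the difference between them was called (adjusted p = 1.29e-06). The other surrogate light chain genes followed the same order: Vpreb2 rose by 2.91 and 0.77 and Vpreb1 by 1.54 and 0.48.

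Pre-B-cell receptor signalling genes were called higher in 12 and lower in 4 of 21 tested of 25 listed (median 0.15), in 8 and 3 without the run, and in 10 and 4 of the 18 that pass on controls alone. The Src family kinase genes Lyn and Fyn were called higher, at 0.62 and 0.68, and Dok3, an inhibitory adaptor, fell by 1.18 ± 0.08 (control median 64.5 RPKM, hairpin median 28.3 RPKM). Class II antigen presentation genes were called higher in 7 and lower in 1 of 10 tested of 11 listed (median 0.53), and in 5 and 1 of the 8 that would have been tested on controls alone. Cd74, the invariant chain, rose by 0.75 ± 0.09 and the protease gene Ctss by 0.86 ± 0.06, while H2-Ob, which restrains peptide loading, fell by 0.42 ± 0.05. Lyn and Fyn were named after their values were seen.

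**Figure D3:**
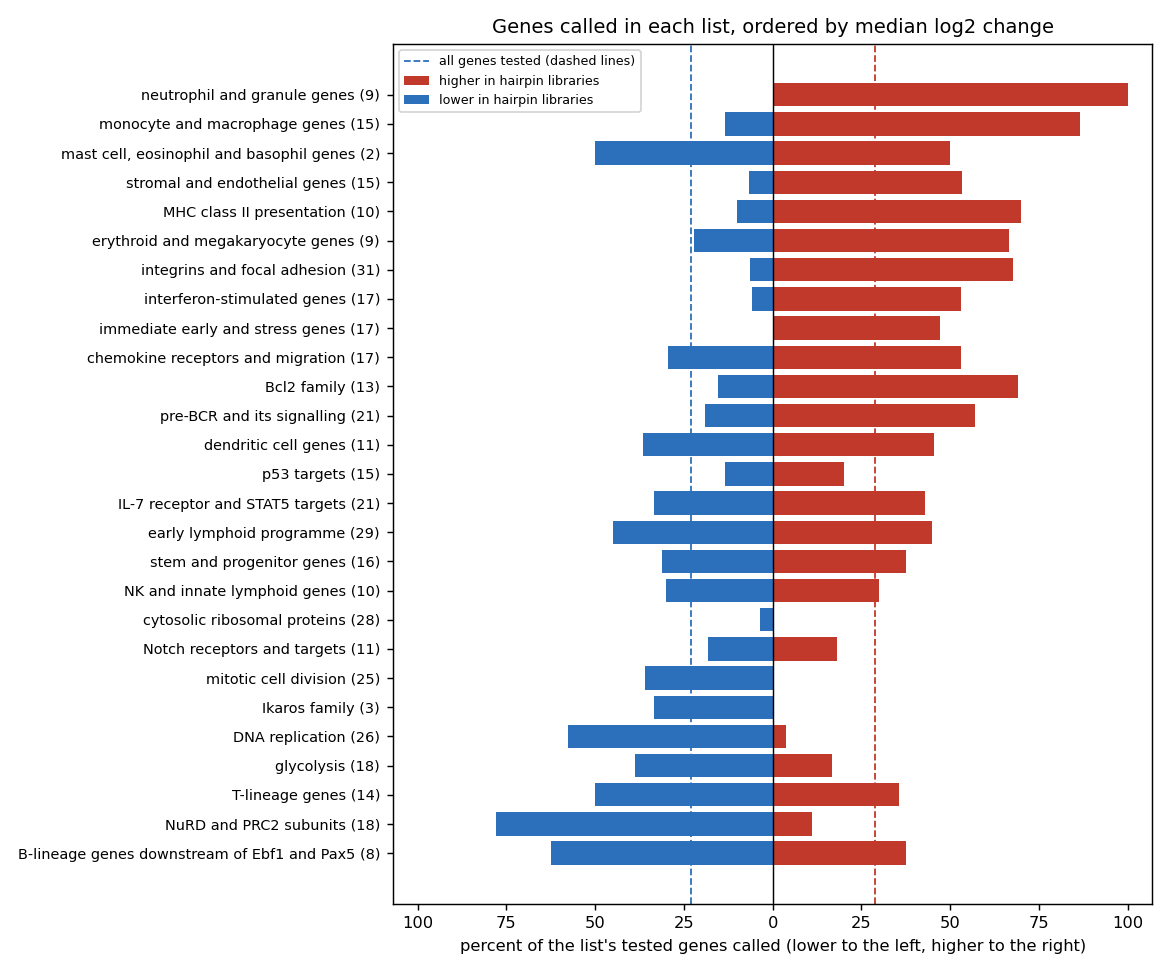
Share of each list's tested genes that were called higher (right, red) or lower (left, blue) in hairpin libraries, with lists ordered by their median log2 difference and the number tested in brackets. Dashed lines show all genes tested (28.8% higher, 23.1% lower); the granule list stands at the top and the NuRD and PRC2 list near the bottom.

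Growth and survival genes changed by less, and in both directions. Ccnd2, which encodes the G1 cyclin D2, went from 38.4 to 81.5 RPKM in controls (median 52.8) to 118 to 204 RPKM with the hairpins (median 150), a rise of 1.48 ± 0.08 (adjusted p = 3.18e-10) with no overlap. Its paralogue Ccnd3 fell by 0.36 ± 0.04. Bcl6, a repressor restrained by STAT5, rose by 1.23 ± 0.08, and the feedback inhibitor gene Socs1 fell by 0.70 ± 0.06. In all, 9 of 21 IL-7 receptor and STAT5 target genes were called higher and 7 lower (median 0.07). In the Bcl2 family 9 of 13 tested of 18 were higher and 2 lower (median 0.22), and 12 would have been tested on controls alone (8 and 2). The pro-death genes Pmaip1 and Bmf rose by 1.08 ± 0.07 and 0.67 ± 0.08, Bmf called with Ik4056 but not with Ik2709. The survival gene Bcl2l2 rose by 0.56 ± 0.06, a value made uncertain by a deposited identifier that also carries the name of the neighbouring gene Pabpn1. The 2 that fell were the survival gene Bcl2, by 0.36 ± 0.06, and the pro-death gene Bid, by 0.36 ± 0.05. Without the run in the model the Bcl2 family counts were 3 and 1.

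Replication and division genes showed small decreases that rest on the run block. Of 26 DNA replication genes 15 were called lower and 1 higher (median -0.14); without the run in the model 6 and 0 were called. Cdc6, the origin licensing factor gene, fell by 0.42 ± 0.05 with no overlap. Of 25 mitotic genes 9 were called lower and 0 higher (median -0.07), against 0 and 0 without the run and 3 lower without run 1. Of 18 glycolytic genes tested, 7 were called lower and 3 higher, against 0 and 1 without the run. Their median was -0.15 (-0.25 with Ik4056 and -0.01 with Ik2709). Among 28 cytosolic ribosomal protein genes 1 was called lower, 0 higher, and their median was -0.02; these genes have many processed copies, so their RPKM is uncertain.

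Subunits of the complexes that Ikaros recruits were mostly lower. Of 18 NuRD and PRC2 genes, 14 were called lower and 2 higher, with a median of -0.21; quantile normalization gave 14 and 2, median-ratio scaling 15 and 2, and the model without the run 4 and 1. Mta3, a NuRD subunit, stood at 57.2 to 64.7 RPKM in the 8 controls (median 61.5) and at 36.2 to 46.2 RPKM in the hairpin libraries (median 39.6), with no overlap. It fell by 0.61 ± 0.04 (adjusted p = 3.27e-10), by 0.59 with Ik4056 and by 0.63 with Ik2709. The deacetylase gene Hdac1 fell by 0.35 ± 0.04 and the remodeller gene Chd3 by 0.38 ± 0.09. Ezh1, the methyltransferase paralogue of Ezh2, rose by 0.68 ± 0.05, but it also differed between the controls (below).

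Stem and progenitor genes were called higher in 6 and lower in 5 of 16 tested of 25 (median 0.00), not far from the shares over all genes (28.8% and 23.1%). Cd34, a progenitor surface antigen, rose by 0.90 ± 0.04 from a control range of 200 to 276 RPKM to 353 to 517 RPKM. Meis1, a homeobox factor of stem cells, fell by 1.13 ± 0.07 and Mycn by 0.97 ± 0.05. The 4 HoxA genes of the list, Hoxa5, Hoxa7, Hoxa9 and Hoxa10, were not called, with differences from -0.04 to 0.02. Interferon-stimulated genes were higher in 9 and lower in 1 of 17 tested of 26 (8 and 3 under quantile normalization). On controls alone 12 would have been tested, 4 higher and 1 lower, so that the share higher was close to the 28.8% over all genes. The remaining increases passed the level for testing only through the hairpin libraries. Immediate early genes were higher in 8 and lower in 0 of 17 tested of 20, led by Jun at 1.57 ± 0.16, with 7 and 0 of the 15 that pass on controls alone.

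Markers of other cell types were read from their own lists. Over all genes 28.8% were called higher and 23.1% lower, and the NK, Notch and p53 lists stood near or below those shares. Of 20 stromal and endothelial genes 15 were tested, 8 called higher and 1 lower (median 0.56), with a summed RPKM of 49.5 to 95.5 in controls and 67.0 to 175 in hairpin libraries; 12 would have been tested on controls alone, 5 higher and 1 lower. The fibroblast-type genes Col1a1 (1.69 to 6.30 RPKM in controls, 1.95 to 12.3 with the hairpins), Fn1, Col1a2 and Cxcl12 were not called, and Col3a1 stayed at or below 0.222 RPKM. Members called higher included Eng, by 2.58, and Serpinh1, a collagen chaperone gene, by 0.97. Serpinh1 averaged 2.00 and 2.35 RPKM with empty vector and Ren713, 8.51 with Ik4056 and 3.37 with Ik2709. Of 16 NK and innate lymphoid genes 10 were tested, 3 higher and 3 lower (9 tested on controls alone, 3 and 3). Of 15 dendritic cell genes 11 were tested, 5 higher and 4 lower (9 on controls alone, 4 and 4), and of 19 erythroid and megakaryocyte genes 9, 6 higher and 2 lower (6 on controls alone, 4 and 2). Of 14 mast cell, eosinophil and basophil genes 2 were tested: Mcpt8, a basophil protease gene, rose by 1.92 ± 0.11 and Fcer1g fell by 0.17 ± 0.04. Of 16 Notch receptors and targets 11 were tested, 2 higher and 2 lower (9 on controls alone, 1 and 2), and of 18 p53 targets 15, 3 higher and 2 lower. The part of contaminating cells in the myeloid increases was not tested.

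Each hairpin against both controls gave 5478 called genes for Ik4056 (51.0%; 3241 higher, 2237 lower) and 4060 for Ik2709 (37.8%; 2205 and 1855). Those 2 comparisons share their controls, so each hairpin was also set against a control of its own in separate fits of 8 libraries. Ik4056 against empty vector called 3767 of 10637 genes (35.4%) and Ik2709 against Ren713 3669 of 10414 (35.2%). Among the 10362 genes tested in both, 2221 were called in the same direction, which is 61.6% of the Ik4056 calls and 60.8% of the Ik2709 calls, and 63 in opposite directions. The 1425 shared increases and 796 shared decreases held all 15 leading genes of each direction. The shared direction of the leading genes was set by the naming rule, which required all hairpin libraries to lie apart from all control libraries. Both fits reuse those libraries, so this gives no separate support.

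**Figure D4:**
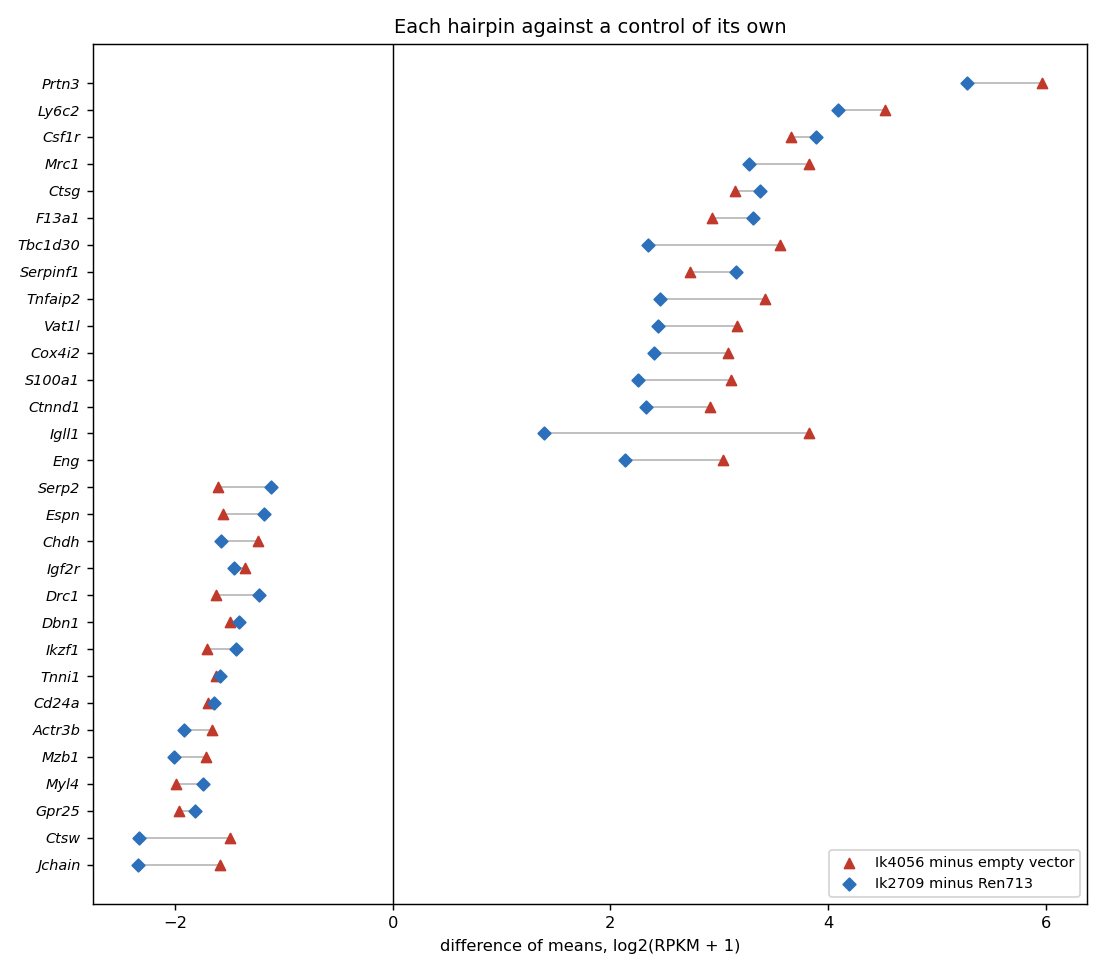
Log2 difference of Ik4056 from empty vector (triangles) and of Ik2709 from Ren713 (diamonds), fits that share no library, for the 15 leading genes of each direction. Both hairpins lie on the same side of 0 for every gene shown, which the naming rule required by allowing no overlap between arms. Igll1 has the widest gap (3.82 and 1.39).

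The hairpins differed from each other at 2407 genes (22.4%; 1620 higher with Ik4056, 787 lower), of which 1700 were also called for the hairpins together. Of the 15 leading increases, 10 differed between hairpins, 9 of them larger with Ik4056. Tcf7, which encodes the T-cell factor TCF-1, went in opposite directions. It stood at 9.09, 7.40, 8.45 and 3.56 RPKM in empty vector and at 6.59, 6.43, 5.47 and 6.84 RPKM in Ren713. It stood at 21.8, 13.6, 17.6 and 9.52 RPKM with Ik4056 and at 3.52, 3.63, 3.72 and 3.02 RPKM with Ik2709. The averaged difference of 0.16 ± 0.13 was not called (adjusted p = 0.316), since Ik4056 raised Tcf7 by 1.08 and Ik2709 lowered it by 0.76 (adjusted p of the difference = 1.255e-05). Ccr9 fell by 1.10 with Ik4056 and by 2.19 with Ik2709.

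The controls differed from each other at 9 genes (0.0838%), 1 higher and 8 lower in Ren713, and at 558 with an unadjusted p under 0.05. Pcyox1l, a prenylcysteine oxidase family gene, was 37.3 to 53.7 RPKM with empty vector and 25.2 to 30.5 RPKM with Ren713. Baz2a and Sec11c were also lower in Ren713, and with empty vector as the only control their knock-down difference changed sign (-0.04 and -0.12, from 0.25 and 0.18). Ezh1 and Serp2 were lower in Ren713 as well, by 0.45 and 0.54, and Ezh1 stood at 4.53 to 7.35 RPKM with empty vector and 2.93 to 5.54 RPKM with Ren713. No gene was called for a knock-down effect that differs between runs by limma (lowest adjusted p = 0.648), with 516 genes at an unadjusted p under 0.05. In that test both hairpins of a run stood as replicates of each other, and so did both controls. The hairpins differed at 2407 genes, which widens its spread, so the lack of calls does not show equal effects in all runs.

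The knock-down was last set beside Ikzf1 deletion in pro-B cells of the same series, in a fit over the 30 RNA libraries (12272 genes). There the deleted cells were Ikzf1(fl/-) Cd79a(Cre/+) and their controls Ikzf1(fl/+) Cd79a(Cre/+), with Cre expressed from a B-lineage gene. They were either Rag2(-/-) pro-B cells or c-Kit-high pro-B cells, with 2 libraries per group. The floxed copy of the controls is also open to Cre, so these controls may keep only 1 intact copy of Ikzf1. The deleted pro-B cells have Ebf1, are committed to the B lineage and lost the gene rather than its transcript. Stage, genotype and method therefore differ together. Whole-gene RPKM checks the deletion poorly: Ikzf1 was lower by 0.62 and 0.58 there. The effects differed from the Rag2-null deletion at 3314 genes (27.0%; 1313 or 10.7% higher and 2001 or 16.3% lower with the knock-down). They differed from the c-Kit-high deletion at 3352 (27.3%; 1551 or 12.6% higher, 1801 or 14.7% lower). Library weighting or leaving out the run lowered these counts by more than 1.5 times. The fit takes 1 spread per gene from all 30 libraries. Its SE and adjusted p therefore do not measure the spread within either deletion alone.

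The size of the myeloid differences depends on the scale, because these genes start from different levels in the 3 settings. Prtn3 averaged 0.180 and 9.13 RPKM in Rag2-null controls and deleted cells, 7.51 and 11.6 RPKM in the c-Kit-high pair, and 15.8 and 764 RPKM in control and hairpin libraries. On the log2(RPKM + 1) scale it changed by 5.63 with the knock-down, 3.08 in Rag2-null and 0.72 in c-Kit-high cells (not called there, adjusted p = 0.220), and both differences were called (2.55 ± 0.47, adjusted p = 0.000428; 4.91 ± 0.47, adjusted p = 2.16e-07). On the log2(RPKM + 0.1) scale, added after seeing the data, the changes were 5.74, 5.02 and 0.82, and the Rag2-null difference of 0.72 ± 0.53 was not called (adjusted p = 0.364).

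Csf1r rose by 3.77, 1.51 and 2.38 on the log2(RPKM + 1) scale, and its means in control and deleted cells were 0.650 and 3.37 RPKM (Rag2-null) and 0.850 and 8.35 RPKM (c-Kit-high). With the pseudocount of 0.1 neither Csf1r difference was called (2.03 ± 0.82 and 1.78 ± 0.82, adjusted p = 0.0792 and 0.126). Mrc1 rose by 3.55, 1.11 and 1.58, from 0.0331 to 1.24 RPKM and from 0.479 to 3.52 RPKM in the deletions. With the pseudocount of 0.1 Mrc1 differed from the c-Kit-high deletion (1.41 ± 0.33, adjusted p = 0.00262) and was not called against the Rag2-null deletion (0.71 ± 0.33, adjusted p = 0.122). Of 20 granule genes, 5 changed more upward and 1 more downward than in the Rag2-null deletion (3 and 1 with the pseudocount of 0.1), and 8 and 0 than in the c-Kit-high deletion (7 and 1). Of 19 monocyte and macrophage genes these counts were 7 and 2 (4 and 2), and 10 and 1 (10 and 0).

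A second set of genes changed less here than upon deletion, and for Rasd2, Serpinh1, Cd34 and Actn1 this was called with either pseudocount. Rasd2, a Ras-related gene, differed by 0.02 with the knock-down (not called) and rose by 6.18 and 3.94 with deletion. Serpinh1, a collagen chaperone gene, rose by 0.97, 7.07 and 6.12, and Cd34 by 0.90, 4.84 and 3.15. Cd34 was already high in pre-pro-B controls, at 232 and 238 RPKM on average with empty vector and Ren713. With the pseudocount of 0.1 its changes were 0.91, 7.81 and 3.91, so their size depends on the scale. Of 17 stromal and endothelial genes 14 changed less upward or more downward than in the Rag2-null deletion and 1 the opposite way (11 and 1 with the pseudocount of 0.1). Actn1 rose in all 3 settings, by 1.44, 2.79 and 2.35. Cd24a fell with the knock-down and differed by 0.34 and 0.42 upon deletion, neither called, and Igll1, at 1867 RPKM on average in c-Kit-high controls, differed there by 0.04. Ly6d fell by 2.31 with the knock-down and by 2.48 in the Rag2-null deletion, a difference of 0.17 ± 0.68 (adjusted p = 0.898). In the c-Kit-high deletion Ly6d differed by -0.96, not called (adjusted p = 0.258), and the knock-down minus that effect was -1.35 ± 0.68 (adjusted p = 0.157). Without Rag2-null control replicate 1 both Ly6d differences were called (1.53, adjusted p = 0.0363, and -1.35, adjusted p = 0.0251), and without replicate 2 the latter was (adjusted p = 0.0249).

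**Figure D5:**
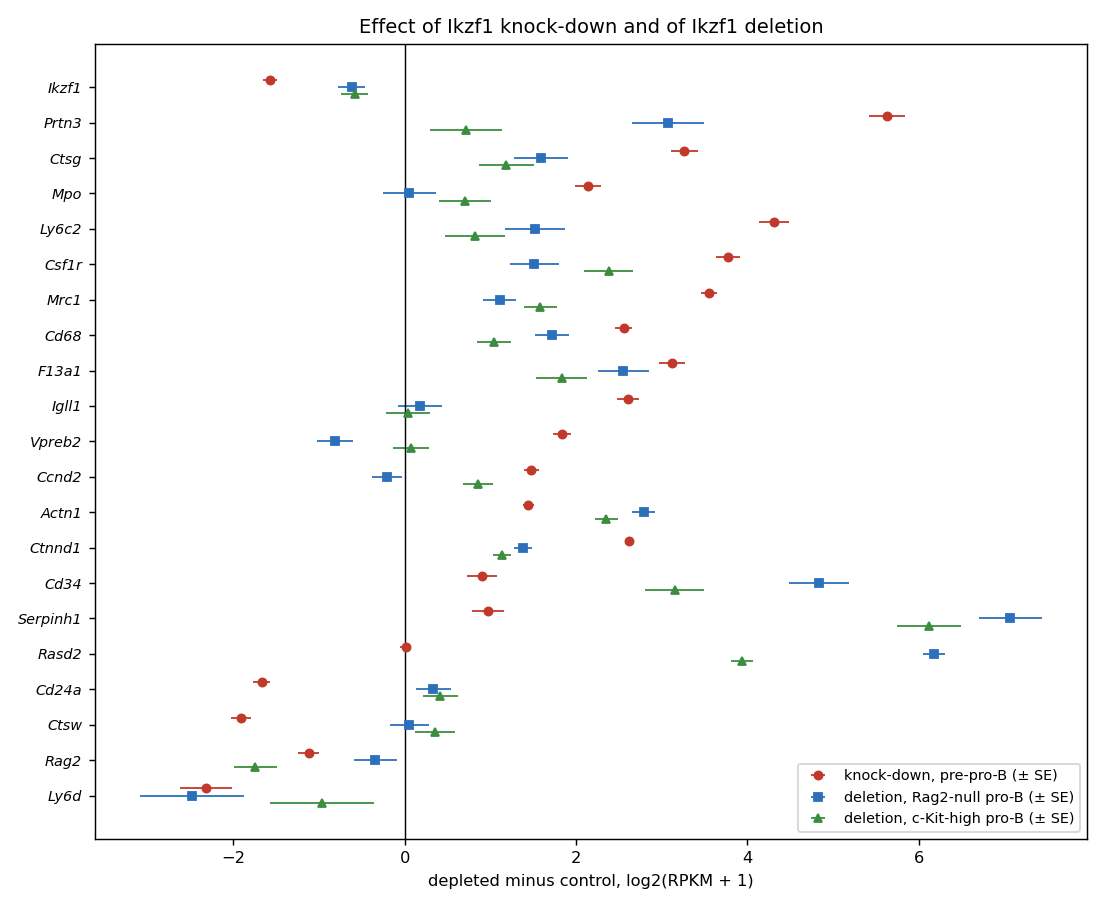
Log2 difference from controls (± SE) of 21 genes upon Ikzf1 knock-down in pre-pro-B cells (circles, 16 libraries), deletion in Rag2-null pro-B cells (squares, 4 libraries) and deletion in c-Kit-high pro-B cells (triangles, 4 libraries), from 1 fit on log2(RPKM + 1). The SE rests on 1 spread per gene over all 30 libraries of that fit, not on the spread within each experiment. Prtn3, Csf1r and Mrc1 lie farther right with the knock-down, although with a pseudocount of 0.1 none of them was called different from the Rag2-null deletion, nor Csf1r from the c-Kit-high deletion; Cd34, Serpinh1 and Rasd2 lie farther right with deletion.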

How the data were processed

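RPKM values came from the authors' deposited tables, 1 per library; DESeq 1.8.3, HTSeq 0.5.3, TopHat 1.4.1 and build mm9 are named, per the submitters' processing notes, without their roles. Per the labels' protocols, polyadenylated RNA gave strand-specific single-end libraries. Of 21025 gene models, 173 matched no current symbol. Values were tested as log2(RPKM + 1) with limma 3.58.1 in R 4.3.3 (trend, robust, two-sided), and Python 3.11.15 with pandas 2.3.3, numpy 2.4.6 and matplotlib 3.10.9 prepared tables and figures. Depth was implied from RPKM steps; no count test was run. The runs pair the libraries: all 24 same-run pairs of deviations correlated (lowest r 0.52, median 0.775; other runs -0.236, median). On simulated data the fit called 96 of 100 genes changed by 0.5, 98 of 98 by 1 and 6 of 10239 unchanged. There few genes changed, both hairpins acted alike and the noise was independent, so these rates do not carry over to the calls made here. The 27 gene lists, rules and tests were chosen with earlier results of these data known. Named genes were Ikzf1, up to 15 called genes each way (largest fold, at least 3 RPKM, no overlap, same sign in 4 runs), up to 3 called members each way per list, cell type markers, and up to 5 genes each way in the other comparisons; predicted genes were left out. Chromatin libraries were not analysed here.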

Additional observations from a re-analysis of the deposited data

Results flagged for a closer look

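Among 76 groups of 4 libraries examined (18 genes and the implied depth in each construct), 3 held a library far from the other 3, where chance alone would mark about 1 in 20. In Ren713, Mpo was 27.6 RPKM in run 4, a gap of 0.837 of the group's range. With Ik4056, Csf1r was 29.9 RPKM in run 1, a gap of 0.832. With Ik2709, Rag2 was 4.64 RPKM in run 1, a gap of 0.873.

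Effects differed between the hairpins at 2407 genes, between the knock-down and the Rag2-null deletion at 3314, and between the knock-down and the c-Kit-high deletion at 3352, each by limma's test of the difference. The largest differences from the Rag2-null deletion, on the log2 scale, were -6.16 for Rasd2, -6.15 for Prg3, an eosinophil granule gene, -6.10 for Serpinh1, -5.62 for Cdh22 and -5.55 for Igfbp2. In the other direction they were 4.80 for Gldc, a glycine cleavage enzyme gene, 3.79 for Ltb, 3.65 for Mc1r, 3.51 for Car2 and 3.49 for Tifa. Car2 and Tifa rose with the knock-down and fell upon that deletion, while Gldc, Ltb and Mc1r fell upon deletion by 5.10, 4.41 and 3.66 from control means of 158, 88.0 and 18.8 RPKM.

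From the c-Kit-high deletion the largest differences were -6.39 for Pcp4, -5.34 for Pianp, -5.15 for Serpinh1, -5.08 for Cdh5, an endothelial cadherin gene, and -4.82 for Ckm. In the other direction they were 4.91 for Prtn3, 4.10 for Cracdl, 3.94 for Camk2b, 3.94 for Fcrl6 and 3.74 for Serpinf1. The causes were not tested, and cell stage, Ebf1 genotype and the method of depletion cannot be told apart in these comparisons.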

How the results depend on the processing

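With no replicate block, that is without the run in the model, calls dropped to 2086 for the hairpins together, 2031 for Ik4056, 1254 for Ik2709, 0 for Ren713 against empty vector (58 at an unadjusted p under 0.05), 1060 and 713 for the separate fits of Ik4056 and Ik2709, and 1582 and 1833 for the differences from the Rag2-null and c-Kit-high deletions. Library weights gave 2154 and 1878 for those differences and 196 for Ren713 against empty vector, which had 5 without a filter and 4 after quantile normalization. Without a filter 3 genes were called for the run interaction. Leaving out 1 library gave 5038 to 5752 for the hairpins together, 4807 to 5585 for Ik4056, 3166 to 4361 for Ik2709, 2775 to 4092 and 2666 to 3362 for the separate fits, 2280 to 3594 and 2698 to 3764 for the deletions, 3 to 18 for the controls (18 without empty vector replicate 4) and 0 to 4 for the run interaction (4 without Ik4056 replicate 1). Ikzf1 lay between -1.67 and -1.44 in every setting. The cause was not tested.

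With empty vector as the only control Baz2a became -0.04 and Sec11c -0.12, and with Ren713 alone Pgk1 became 0.26. Of the 174 other named genes, 38 lost their call in at least 1 alternative and 7 gained one. With a pseudocount of 0.1 (for single genes of the deletion comparison, added after seeing the data) the Ctsg difference from the Rag2-null deletion became -0.68, not called (adjusted p = 0.389), and those of Ly6c2 and Cd68 (1.28 and 0.56) lost their call. List counts under other scalings, the block and the runs were added after seeing the data. RPKM steps carry no counting error, so depth limits could not be set for single values.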
